A study of Mus musculus with 12 samples.

Results

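The subject here is a set of 10 genes of the endocardial cushion mesenchyme and of epithelial-to-mesenchymal transition (EMT), followed through bulk RNA sequencing of heart ventricles of mouse embryos at embryonic day 12.5. The genes were listed by name, with earlier results of these data known, and were found in the deposited count table by symbol, 10 of its 40800 genes, each with 1 Ensembl gene, and all 10 passed the low-count filter. They are the transcription factors Twist1, Snai2, Sox9, Prrx1 and Prrx2, the hyaluronan synthase Has2, the matrix genes Vcan, Dcn and Postn, and the receptor Pdgfra. The 12 libraries comprised 6 labelled control and 6 labelled Wnt gain of function (Wnt GOF below; Wnt signalling made more active). Labels name neither the engineered allele nor a Cre driver, give no alleles for the controls, and do not say whether a library holds 1 embryo or several.

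Endocardial cushions are swellings of matrix in the atrioventricular canal and outflow tract from which the heart valves and part of the septa form. Endocardial cells lining them lose their contacts, undergo EMT under TGF-beta, BMP and Notch signals, and invade a jelly rich in hyaluronan and versican as mesenchyme. Has2 makes the hyaluronan, Vcan encodes versican, Snai2 and Twist1 repress epithelial adhesion or drive mesenchymal behaviour, and Sox9 supports expansion of the cushion mesenchyme. Prrx1 and Prrx2 are paired-type homeobox factors of embryonic mesenchyme, Pdgfra is a receptor for platelet-derived growth factors on mesenchymal and epicardium-derived cells, and Dcn and Postn encode decorin and periostin, which organise collagen. Several of these genes are also used by epicardium-derived fibroblasts, so that none of them marks cushion cells alone.

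Total counts ran from 10130088 to 17526325 per library. Axin2, a standard target gene of the pathway, averaged 2.97 ± 1.09 CPM (SD, n = 6; CPM, read counts scaled to a common library size) in control and 18.3 ± 8.18 CPM (SD, n = 6) in Wnt GOF libraries, a log2 difference of 2.62 ± 0.404 (SE; adjusted p = 0.0145 in edgeR's quasi-likelihood test), while Ctnnb1, which encodes beta-catenin, differed by 0.049 (adjusted p = 0.999). Notum, another target gene of the pathway, differed by 4.84 on the log2 scale (adjusted p = 0.0095). One library stood near the controls in these target genes. The library labelled Wnt GOF replicate 5 had 3.78 CPM of Axin2, inside the control range of 1.39 to 4.13 CPM. It had 1.18 CPM of Notum, little above the highest control (0.874 CPM). The other 5 Wnt GOF libraries had at least 14.9 and 12.9 CPM. In Hey2 all 6 Wnt GOF libraries, replicate 5 included, lay at 63.85 to 81.3 CPM, below the controls at 88.1 to 105.8 CPM. In Rgs5 they lay at 5.26 to 28.9 CPM against 30.25 to 112.3 CPM. Those genes were picked for their low p with this library included. Replicate 5 is kept in the 6 as labelled. Without it, edgeR called 149 genes higher and 28 lower in place of 64 and 10, 0 of the 10 cushion genes were called, and their log2 fold changes ran from -0.306 (Pdgfra) to 0.101 (Dcn) with a median of -0.148. Axin2 missed the threshold in 4 alternative analyses with a log2 fold change of similar size, at 2.54 with the replicate number as a block (adjusted p = 0.125), 2.48 with limma-voom (0.0982), 2.39 with close library pairs summed (0.22) and 2.35 without the 4 libraries described next (0.443). Libraries of the same group were not equally alike. The mean chi-square per gene was 3.07 between Wnt GOF replicates 3 and 4, 3.10 between replicates 1 and 2 of that group and 3.32 between control replicates 2 and 3, against 12.8 or more for every other pair within a group. Sampling noise alone gives about 1, so these pairs differed by more than counting error, which does not show that they are separate animals. They were kept as separate samples. Nothing in the labels ties libraries to separate animals, so p-values reflect only how much these libraries varied, which may be technical. Control replicates 2 and 3 and Wnt GOF replicates 1 and 2 also stood apart from the other 8 libraries in most of the cushion genes. They are named as 4 libraries below, after their values were seen, and as close pairs they may not be 4 independent samples.

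For none of the 10 cushion and EMT genes was the difference between genotypes larger than the spread between libraries. In edgeR's quasi-likelihood test with Benjamini-Hochberg adjustment over all genes, 0 of the 10 were called higher and 0 were called lower (threshold 0.05), where 0.501% of the 14774 tested genes were called in either direction (0.433% higher, 0.0677% lower). At an unadjusted p under 0.05 there were also 0 of 10, against 6.3% of all tested genes, and DESeq2 (1.08% of genes called) and limma-voom (0.0406%) called 0 of them too. All 10 had an adjusted p of 0.999. The groups overlapped in all 10, while they did not overlap in 0.46% of all tested genes. On the log2 scale, the median of the fold changes was -0.115 over the set and 0.0013 over every gene tested. Of the 10 genes, 9 lay below 0, where 49.6% of all tested genes did, with the library labelled Wnt GOF replicate 5 included. These signs were not stable, since in 7 of the 10 at least 1 alternative analysis turned the sign.

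**Figure D1:**
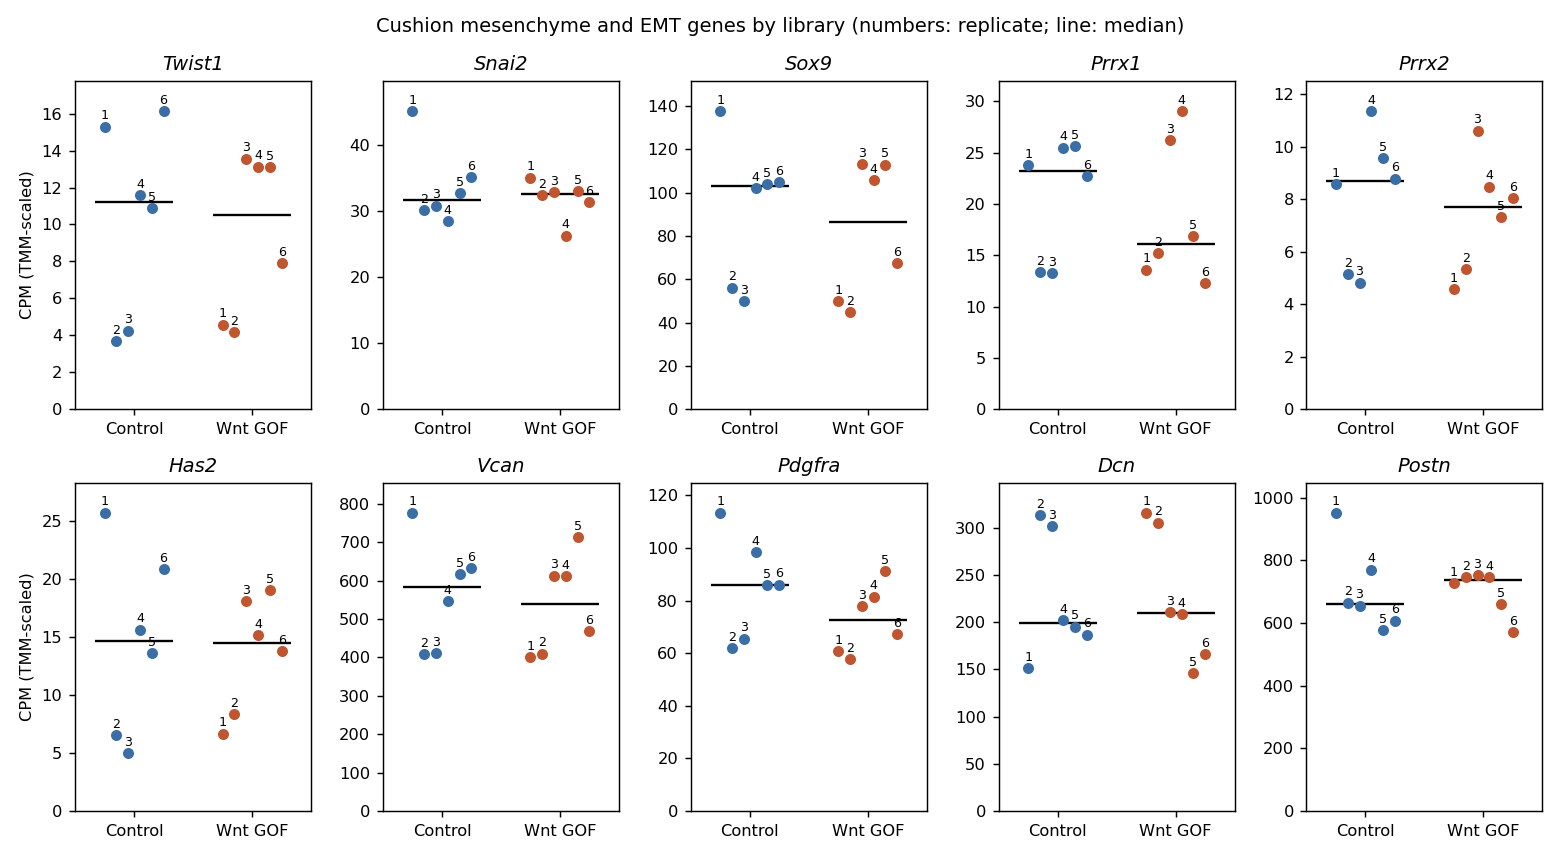
CPM of each gene (vertical axis, starting at 0) in the 6 control and 6 Wnt GOF libraries; each point is a library with its replicate number, and lines are group medians. The groups overlap for every gene, and control replicates 2 and 3 lie beside Wnt GOF replicates 1 and 2 at the bottom of the Twist1, Has2, Sox9, Prrx2, Vcan and Pdgfra panels and at the top of the Dcn panel.

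Promoter sequences are shown for 3 genes with different library patterns, to set the letters before their start sites side by side: Twist1, low in the 4 libraries, Vcan, low there over a smaller range, and Postn, which did not follow them. Each is the 250 bases before the start, 5′ to 3′, from the RefSeq promoter table (build GRCm38.p6), at chr12:33957421-33957670 (+ strand), chr13:89742513-89742762 (- strand) and chr3:54360857-54361106 (+ strand), the downstream of 2 entries for Postn. Capitals mark TATAAA.
Twist1: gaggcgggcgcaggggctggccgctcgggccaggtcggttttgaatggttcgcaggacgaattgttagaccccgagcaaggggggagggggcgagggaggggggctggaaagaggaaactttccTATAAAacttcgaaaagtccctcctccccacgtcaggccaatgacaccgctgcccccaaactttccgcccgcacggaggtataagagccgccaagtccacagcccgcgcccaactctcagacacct
Vcan: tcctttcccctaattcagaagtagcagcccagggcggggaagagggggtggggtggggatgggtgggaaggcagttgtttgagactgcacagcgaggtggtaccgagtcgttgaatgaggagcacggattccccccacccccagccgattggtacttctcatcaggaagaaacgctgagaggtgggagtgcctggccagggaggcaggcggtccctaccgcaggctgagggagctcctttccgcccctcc
Postn: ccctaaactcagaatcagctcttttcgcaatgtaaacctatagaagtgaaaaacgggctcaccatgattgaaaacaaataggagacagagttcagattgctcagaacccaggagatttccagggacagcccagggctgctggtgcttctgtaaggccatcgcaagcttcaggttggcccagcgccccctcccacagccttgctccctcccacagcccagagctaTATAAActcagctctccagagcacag

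Letters were searched on both strands. The core bound by the TCF/LEF partners of beta-catenin, as CTTTGA or with a final T in place of the A, and the E-box of Snail-type repressors, CAGGTG, had 0 matches in the entries that the table held for 6 of the 10 genes, Twist1, Vcan, Postn, Pdgfra, Prrx1 and Prrx2. Of all 32851 promoter windows of this length, 13.8% held the first TCF/LEF form, 16.5% the other form and 17.2% the E-box, and the forms cannot match at one place. TATAAA, the letters of the TATA box, was held at any place by 12.4% of all windows. These letters stood 26 bases before the downstream start of Postn and 126 bases before the start of Twist1, counted from their first base. A match is a description of letters, and its absence says only that these letters are not in this window.

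Twist1 (ENSMUSG00000035799), a basic helix-loop-helix factor of the early cushion mesenchyme, was one of the 2 most variable of the set. In control ventricles its lowest, median and highest values were 3.67, 11.2 and 16.2 CPM, and in Wnt GOF ventricles 4.16, 10.5 and 13.6 CPM. The low values within each group belonged to a pair of libraries, control replicates 2 and 3 (3.67 and 4.25 CPM) and Wnt GOF replicates 1 and 2 (4.58 and 4.16 CPM), with the other 8 libraries between 7.90 and 16.2 CPM. The log2 fold change between genotypes was -0.14 ± 0.417 (SE), with a 95% interval from -1.04 to 0.77 (edgeR adjusted p = 0.999). A log2 change of 1 upward lies outside this interval and one of the same size downward lies just inside it. Without the 4 libraries the interval was -0.57 to 0.22. They were named partly for their low Twist1, so a narrower interval follows from that choice.

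Snai2 (ENSMUSG00000022676), the zinc-finger repressor also called Slug, was the steadiest of the 5 transcription factors. It lay at 28.4, 31.7 and 45.1 CPM (lowest, median, highest) in control and at 26.3, 32.6 and 35.0 CPM in Wnt GOF libraries. Control replicate 1 was the highest library, and the 4 libraries, at 30.2 to 35.0 CPM, lay inside the range of the other 8. The log2 fold change was -0.084 ± 0.11, with a 95% interval from -0.32 to 0.15.

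Sox9 (ENSMUSG00000000567), an HMG-box factor, ran at 49.95, 103.0 and 137.7 CPM in control and at 44.7, 86.6 and 113.2 CPM in Wnt GOF ventricles. All 4 libraries, at 44.7 to 56.1 CPM, lay below the other 8, of which Wnt GOF replicate 6 was the lowest at 67.5 CPM. Between genotypes the log2 fold change was -0.17 ± 0.309, with a 95% interval from -0.84 to 0.51.

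The homeobox paralogs Prrx1 (ENSMUSG00000026586) and Prrx2 (ENSMUSG00000039476) had similar differences between genotypes. Prrx1 lay at 13.3, 23.3 and 25.6 CPM in control and at 12.3, 16.1 and 29.1 CPM in Wnt GOF libraries, with a log2 fold change of -0.13 ± 0.243 and a 95% interval from -0.65 to 0.39. Prrx2 lay at 4.82, 8.68 and 11.4 CPM and at 4.58, 7.69 and 10.6 CPM, with a log2 fold change of -0.12 ± 0.234 and a 95% interval from -0.62 to 0.38. The pair parted in Wnt GOF replicate 6, which held the lowest Prrx1 of all libraries (12.3 CPM) but 8.05 CPM of Prrx2, within the range of the other 7 libraries that stood above the 4. Per kilobase of exon, Prrx1 was at 0.27 to 0.608 times the level of Prrx2 (median 0.467), lowest in that library. That ratio depends on the merged exon lengths used, 11066 bases for Prrx1 and 1961 for Prrx2.

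Has2 (ENSMUSG00000022367), the main hyaluronan synthase of the cushions, had the widest range of all 10 genes, 5.15-fold between its lowest and highest library. Control libraries held 4.995, 14.6 and 25.7 CPM (lowest, median, highest) and Wnt GOF libraries 6.68, 14.5 and 19.0 CPM. The medians were nearly equal, and the low values were again the 4 libraries, at 4.995 to 8.32 CPM against 13.6 to 25.7 CPM in the other 8. Between genotypes the log2 fold change was -0.11 ± 0.392, with a 95% interval from -0.96 to 0.74. Its sign turned without control replicate 1, when the log2 fold change was 0.124.

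Vcan (ENSMUSG00000021614), which encodes the large proteoglycan that binds hyaluronan, followed Has2 over a smaller range. It lay at 407.6, 582.2 and 777.3 CPM in control and at 400.5, 540.2 and 713.5 CPM in Wnt GOF libraries. The 4 libraries were almost identical, at 400.5 to 410.8 CPM, all below the 469.3 CPM of the next lowest. The log2 fold change between genotypes was -0.077 ± 0.18, with a 95% interval from -0.46 to 0.31.

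Pdgfra (ENSMUSG00000029231) had the largest fold change and the smallest p of the set. Its levels were 62.1, 86.0 and 113.5 CPM in control and 57.8, 72.6 and 91.1 CPM in Wnt GOF libraries, and 5 of the 6 Wnt GOF libraries lay below the control median. The log2 fold change was -0.23 ± 0.15, with a 95% interval from -0.55 to 0.089 (unadjusted p = 0.145, adjusted p = 0.999 in edgeR). Without the 4 libraries, with 4 libraries left in each group, it was -0.27 with an interval from -0.51 to -0.03 (unadjusted p = 0.0301), and the adjusted p was 0.73. The 4 libraries had the lowest Pdgfra (57.8 to 65.6 CPM against 67.3 to 113.5 CPM) and were named after values were seen. Leaving them out lowers the spread by that choice, so this interval and p cannot serve as a test. In that fit 0 of the 10 genes were called, and 0.0135% of 14801 genes.

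Dcn (ENSMUSG00000019929) ran opposite to Twist1 and Has2 across libraries. Control libraries held 151.4, 198.8 and 313.1 CPM and Wnt GOF libraries 145.7, 209.8 and 316.2 CPM. The 4 libraries, low in Twist1 and Has2, were the highest here, at 302.0 to 316.2 CPM against 145.7 to 210.8 CPM in the other 8. Between genotypes the log2 fold change was 0.0029 ± 0.225, with a 95% interval from -0.49 to 0.49.

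Postn (ENSMUSG00000027750) varied least over its range, 1.67-fold between the extremes. It lay at 576.9, 660.3 and 952.4 CPM in control and at 571.0, 736.6 and 752.4 CPM in Wnt GOF libraries. Control replicate 1 was the single high library, and the 4 libraries, at 655.6 to 747.3 CPM, lay among the others. The log2 fold change was -0.0085 ± 0.114, and its 95% interval, from -0.25 to 0.23, was among the narrowest of the set together with that of Snai2.

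**Figure D2:**
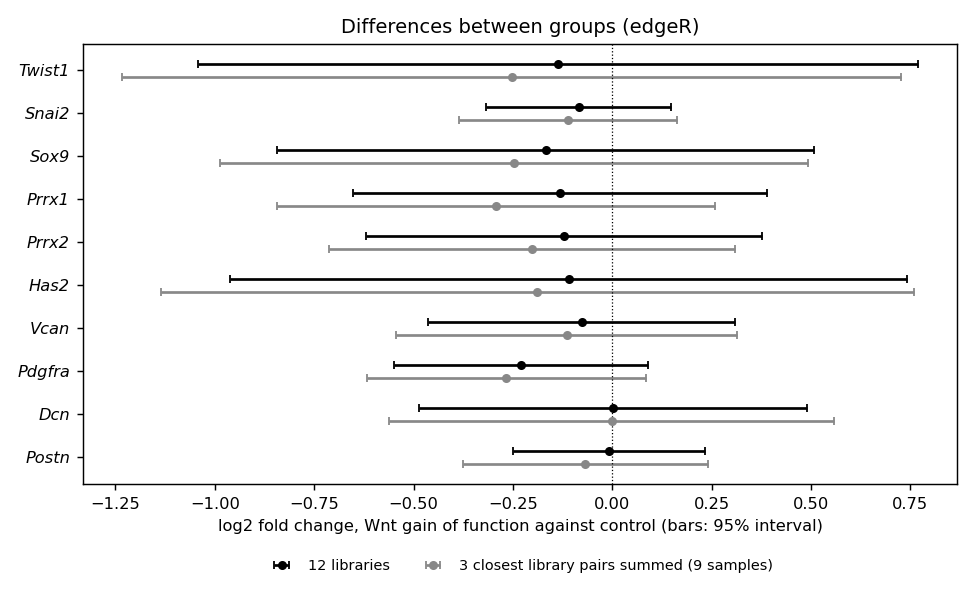
Log2 fold change of each gene, Wnt gain of function against control, with its 95% interval from edgeR (horizontal axis), over the 12 libraries (black) and with the 3 closest library pairs summed into 1 sample each (grey). All intervals include 0 in both fits, and those of Twist1 (-1.04 to 0.77) and Has2 (-0.96 to 0.74) are the widest.

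The spread between libraries was larger than counting error for each of the genes given here. Twist1 had 37 to 261 counts per library, for which counting error alone gives a coefficient of variation of 8.87% in control, and the control libraries spread by 51.7%. For Has2 these values were 7.76% and 55.1%, for Sox9 2.94% and 36.0%, and for Postn 1.01% and 19.6%. Counting error of reads without molecular identifiers covers sampling only. The SD of log2 CPM over control libraries was 0.923 for Twist1 and 0.928 for Has2, larger than in 98.2% and 98.3% of tested genes, against a median of 0.219 over all genes. In Wnt GOF libraries it was 0.78 and 0.614, larger than in 96.8% and 93.3%. Snai2 and Postn had the smallest SDs of the 10, at 0.238 and 0.264 in control, above the median of all genes, and at 0.142 and 0.158 in Wnt GOF libraries, below the median of 0.232. Against tested genes of similar mean level, the SD of Postn was larger than in 86.6% in control and 57.0% in Wnt GOF libraries. For Snai2 these shares were 77.3% and 33.5%. With the 3 closest pairs summed, which leaves 9 samples, the 95% interval widened to -1.23 to 0.73 for Twist1 and to -0.62 to 0.084 for Pdgfra. In that fit 0 of the 10 genes were called, where 0 of all 15112 tested genes were called higher and 1 lower.

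Across the 12 libraries the genes fell into distinct patterns that cut across genotype. Twist1, Has2, Sox9, Prrx2, Vcan and Pdgfra, 6 of the 10, had all 4 libraries below the other 8, as 6.68% of all tested genes did. Dcn, 1 of the 10, had all 4 above, as 6.29% of all tested genes did. The 4 libraries were named partly from Twist1 and Has2, so these counts describe the pattern and support nothing. Prrx1 was low in the same libraries, at 13.3 to 15.2 CPM, but also in Wnt GOF replicate 6. Snai2 and Postn did not separate the libraries. Measured as the root mean square difference of log2 CPM centred on each gene's mean, the closest pairs were Vcan with Pdgfra (0.137), Snai2 with Postn (0.213), and Twist1 with Has2 (0.242). The farthest pairs were Twist1 with Dcn (1.14), Has2 with Dcn (1.09) and Sox9 with Dcn (0.908). Each genotype contributed 2 of the 4 libraries.

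**Figure D3:**
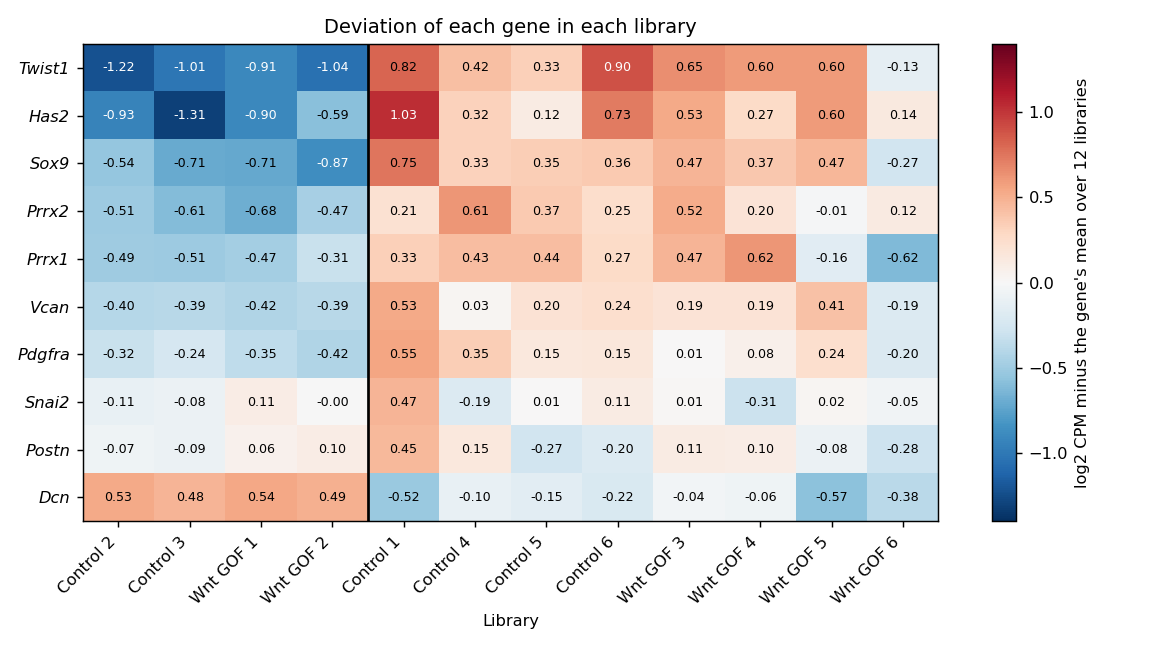
Log2 CPM of each gene (rows) minus its mean over the 12 libraries, per library (columns), from blue (below the mean) to red (above). Left of the line stand the 4 libraries named in the text, where Twist1 lies at -1.22 to -0.905 and Dcn at 0.477 to 0.543.

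In bulk ventricles, fewer cells of a type and less RNA per cell cannot be told apart, and the summed markers of several other cell types moved with these genes. Markers of atrioventricular canal myocardium (6 genes, such as Tbx2 and Tbx3) summed to 31.5 to 35.8 CPM in the 4 libraries and to 53.3 to 66.1 CPM in the other 8, though of the single genes only Tbx2 had the 4 libraries apart, and Tbx3 overlapped. Atrial markers (9 genes) summed to 2826 to 3748 CPM and to 4383 to 5452 CPM, and epicardial markers (8 genes) to 260.2 to 286.2 CPM and to 305.6 to 368.0 CPM. All of these sums were lower in the 4 libraries, but of the 9 atrial genes 2 (Myl7 and Nr2f1) had the 4 libraries below the other 8, and Myl7 and Myl4 made up most of that sum. The list for ventricular myocardium (8 genes) summed higher there, at 35140 to 39620 CPM against 27230 to 31990 CPM. Only 3 of the 8 were apart as single genes, Tnnt2, Actc1 and Ttn, which are genes of heart muscle in general. Actc1 and Ttn made up much of that sum. Myl2, Myl3, Myh7, Hey2 and Irx4 overlapped, so the sum does not show a rise particular to ventricular genes. Erythroid genes were lower, at 8120 to 11290 CPM against 13610 to 89910 CPM, and the sums for endocardium, mural cells, macrophages and neural crest overlapped. Every marker of the 9 lists was detected in every library except 4 of the 6 of the neural crest list. Single markers also went against their list: Msln, an epicardial gene, had all 4 libraries above the other 8, while Tbx18, Upk3b, Upk1b, Aldh1a2 and Lrrn4 had them below. The part of these cell types in the levels of the cushion genes was not tested.

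**Figure D4:**
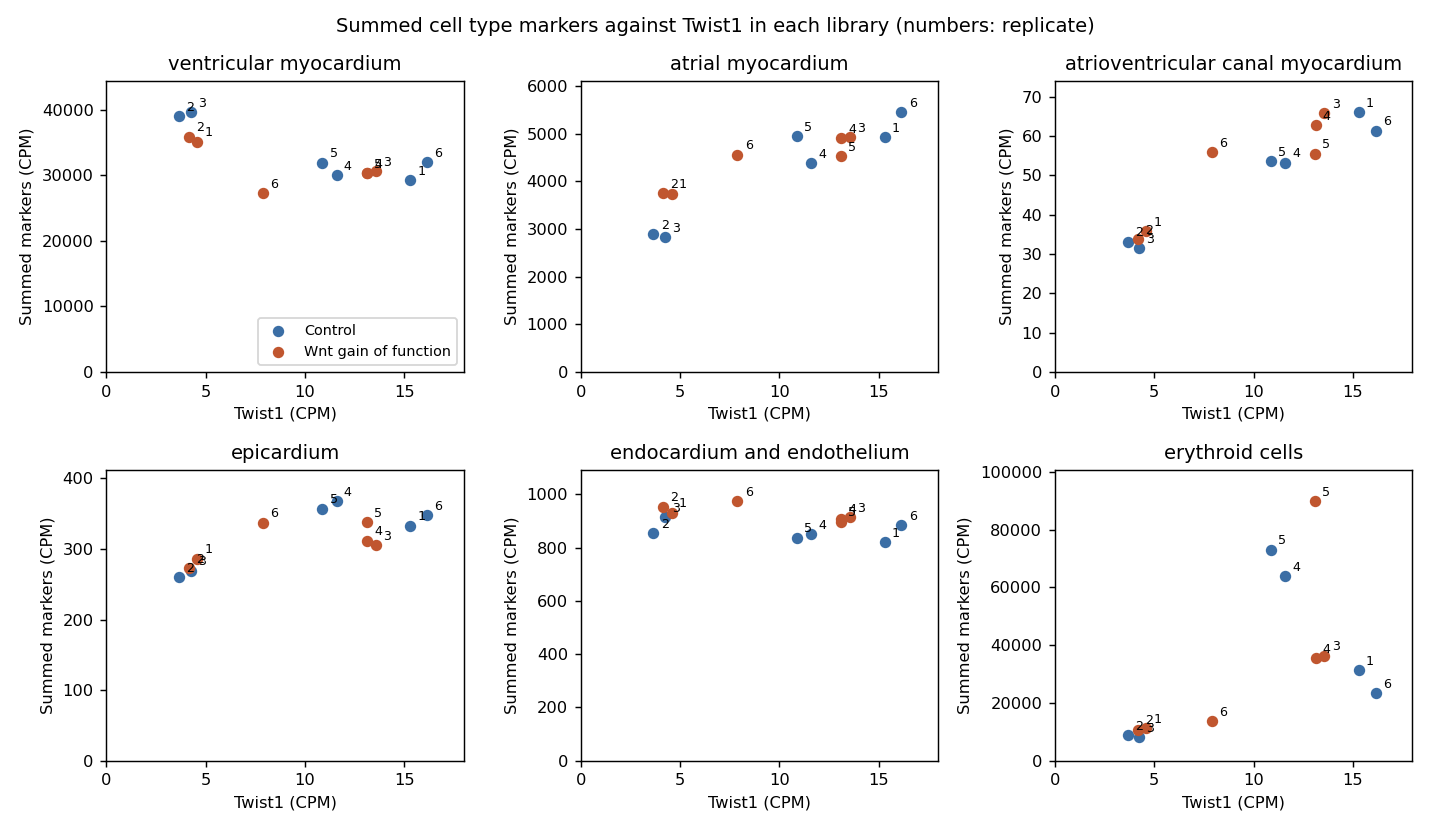
Summed CPM of 6 marker lists (vertical axes, from 0) against Twist1 CPM (horizontal axis) in each library, coloured by genotype and numbered by replicate. The 4 libraries with 3.67 to 4.58 CPM of Twist1 have the lowest atrioventricular canal, atrial, epicardial and erythroid sums and the highest ventricular sums.

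Between genotypes the same marker sums overlapped. Atrioventricular canal markers ran from 31.5 to 66.1 CPM in control and from 33.8 to 65.9 CPM in Wnt GOF libraries, and epicardial markers from 260.2 to 368.0 CPM and from 272.4 to 338.0 CPM. The endocardial sum overlapped least, at 820.1 to 914.6 CPM (median 852.2) in control and 897.1 to 974.9 CPM (median 922.9) in Wnt GOF libraries. The mural sum ran from 1341 to 1578 CPM (median 1465) and from 1235 to 1395 CPM (median 1336). These sums were not tested. Of the genes of the 9 marker lists, edgeR called 0 higher and 2 lower, Hey2, a transcriptional repressor of the compact ventricular wall, at -0.43 ± 0.0716 (adjusted p = 0.0145) and Rgs5, a pericyte gene, at -2.54 ± 0.461 (adjusted p = 0.0404). The Rgs5 call was lost in 10 of 12 fits that left out 1 library, while its log2 fold change stayed between -2.90 and -2.38 over the 12. Both calls were lost without the 4 libraries, at -0.354 for Hey2 (adjusted p = 0.283) and -2.40 for Rgs5 (0.554), and with close pairs summed, at -0.426 (0.208) and -2.32 (0.579). Hey2 also missed the threshold with limma-voom (0.0504) and Rgs5 with the replicate block (0.127) and with no low-count filter (0.0684). Unadjusted p-values under 0.05 came from 4 of 8 macrophage, 2 of 6 atrioventricular canal, 2 of 7 mural, 1 of 9 atrial, 1 of 8 ventricular, 1 of 10 endocardial, 0 of 8 epicardial, 0 of 7 erythroid and 0 of 2 tested neural crest genes. Besides Hey2 and Rgs5, genes with the lowest p in each list had log2 fold changes of 0.41 (Tbx3) and 0.48 (Cpne5) for the atrioventricular canal, -0.50 (Kcna5) and 0.22 (Myl4) for the atria, 0.44 (Npr3) and 0.16 (Tek) for endocardium, and -0.38 (Msln) and -0.15 (Tbx18) for epicardium. Those of macrophages were 0.59 (Tyrobp) and 0.58 (Aif1), and values were -0.15 for Irx4, -0.28 for Notch3, -0.26 for Erbb3 and -0.38 for Hbb-bt, with adjusted p-values of 0.393 to 0.999 over all of these (edgeR). The median log2 fold change was 0.393 over the macrophage genes and 0.276 over the atrioventricular canal genes, against 0.0013 over all tested genes. The part of the marker levels in the small differences of the cushion genes between genotypes was not tested.

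Genes acting with the 10 in cushion formation were not called by edgeR in the fit of all 12 libraries. Of 12 tested EMT and cushion transcription factors, 0 were called higher and 0 lower, 1 had an unadjusted p under 0.05, and the median log2 fold change was -0.03. That 1 was Msx2, a homeobox factor of cushion endocardium and myocardium, which ranged from 0.793 to 3.83 CPM in control and from 2.00 to 14.6 CPM in Wnt GOF libraries, a log2 difference of 1.82 ± 0.436 (edgeR adjusted p = 0.133). DESeq2 called it higher (adjusted p = 0.0202), as did edgeR without the library labelled Wnt GOF replicate 5 (0.00229). Only these 2 of the 22 alternatives called Msx2. It was not called with limma-voom, with no low-count filter, with the replicate block or with close pairs summed. The 4 libraries spanned 0.793 to 9.40 CPM, within the range of the other 8 at its upper end. Meox1 and Zeb2 differed on the log2 scale by -0.51 (adjusted p = 0.857) and 0.16 (0.797). Snai1, the relative of Snai2, lay at 2.13 to 2.72 CPM in the 4 libraries and at 3.62 to 5.49 CPM in the other 8. Zeb1 ran the other way, at 171.4 to 191.4 CPM against 117.4 to 143.8 CPM.

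Among 11 tested ligands and receptors of TGF-beta and BMP signalling, 0 were called and 1 had an unadjusted p under 0.05, with a median log2 fold change of 0.038. Bmp4, a ligand of the outflow region, was at 0.54 ± 0.251 (adjusted p = 0.784), Tgfb2, the TGF-beta ligand of cushion EMT, at 0.18 ± 0.126 and the co-receptor Eng at 0.15. Bmp2, the myocardial signal that induces cushion EMT in the atrioventricular canal, had all 4 libraries (8.499 to 9.94 CPM) below the other 8 (12.2 to 24.1 CPM), with a log2 fold change between genotypes of -0.097. Tgfb1 did not pass the low-count filter.

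In the hyaluronan and versican matrix, 0 of 12 tested genes were called, 1 had an unadjusted p under 0.05, and the log2 fold changes had a median of -0.038. Cd44, a hyaluronan receptor, had the lowest p, with a log2 difference of 0.22 ± 0.0646 (adjusted p = 0.276), from 96.6 to 108.5 CPM in control and from 102.5 to 124.6 CPM in Wnt GOF libraries. The hyaluronidases Hyal1 and Hyal2 were at -0.21 and -0.13. Hapln1, the link protein that joins versican to hyaluronan, had a pattern over the libraries like Has2 and Vcan, at 33.4 to 48.7 CPM in the 4 libraries and 96.5 to 193.9 CPM in the other 8. The other synthases were low, with Has3 at 0.466 to 1.97 CPM and Has1 under the filter. The log2 fold changes of the 5 Adamts proteases in the list, a family that cuts versican, ran from -0.218 for Adamts4 and -0.051 for Adamts9 over -0.025 for Adamts5 and 0.052 for Adamts1 to 0.187 for Adamts20, none of them called.

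The ligands of Pdgfra were not called either (0 of 5 PDGF ligands and receptors, 0 at an unadjusted p under 0.05, median log2 fold change 0.0429). Pdgfa, its main ligand, differed by 0.043 on the log2 scale, Pdgfc by 0.40 ± 0.239 (adjusted p = 0.967), Pdgfb by -0.26 and Pdgfd by 0.055. None of the 5 separated the 4 libraries from the other 8.

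Of 7 tested relatives of Dcn and Postn, 0 were called and 0 had an unadjusted p under 0.05, with a median of -0.0471 on the log2 scale. Tgfbi, the closest relative of Postn, had a log2 fold change of -0.42 ± 0.3, and the small leucine-rich proteoglycans Ogn and Bgn had -0.28 and 0.14. Ogn and Aspn shared the library pattern of Dcn. Ogn lay at 48.8 to 59.5 CPM in the 4 libraries and 22.4 to 38.9 CPM in the other 8, and Aspn at 34.4 to 38.9 CPM and 5.46 to 19.2 CPM. Tgfbi ran with Vcan, at 59.2 to 71.5 CPM against 85.5 to 170.7 CPM. Among 14 genes of fibrous matrix and adhesion 0 were called and 1, Col1a2, had an unadjusted p under 0.05, with a median of -0.157 on the log2 scale. Col1a2 differed by -0.32 ± 0.128 on the log2 scale (edgeR adjusted p = 0.582), Col1a1 by -0.52 and Fn1 by 0.23. Cthrc1, Fbln2, Col2a1 and Cdh11 had all 4 libraries below the other 8, and Col6a1 and Ncam1 had them above.

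Per kilobase of exon, with all annotated exons of a gene merged, Postn was the most abundant of the 10 and Prrx1 the least. The order depends on these merged lengths, which can exceed the length of the main transcript. In CPM alone, Prrx1 averaged 20.7 in control libraries, above Twist1 (10.3), Has2 (14.6) and Prrx2 (8.045). Levels, as mean ± SD over 12 libraries in CPM per kilobase, were 80.7 ± 12.1 for Postn, 38.6 ± 11.2 for Dcn, 38.1 ± 8.98 for Vcan and 21.1 ± 7.64 for Sox9. Snai2 followed at 16.2 ± 2.30, Pdgfra at 7.88 ± 1.71 and Twist1 at 6.05 ± 2.88. At the low end stood Prrx2 at 3.94 ± 1.17, Has2 at 3.31 ± 1.52 and Prrx1 at 1.79 ± 0.562. Ranges of neighbours in this order did not overlap for Postn over Dcn and for Snai2 over Pdgfra, and overlapped for the other 7 neighbouring pairs. Dcn and Vcan changed places, Dcn being the higher in the 4 libraries and Vcan in the other 8. Sox9 was above Snai2 in 8 libraries and below it in the 4. Twist1 was at 0.151 to 0.171 times the level of Snai2 in the 4 libraries and at 0.313 to 0.621 times in the other 8. Has2 was at 0.0415 to 0.0693 times the level of Vcan and at 0.0752 to 0.113 times in the other 8, and Postn at 1.43 to 1.64 times the level of Dcn and at 1.98 to 4.22 times.

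**Figure D5:**
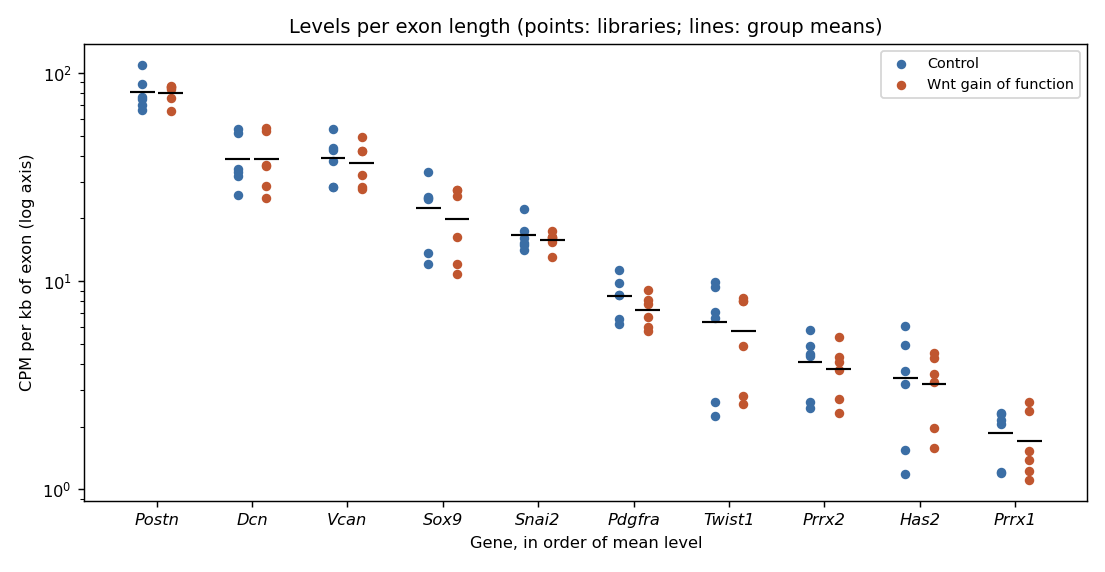
CPM per kilobase of exon (log axis) of each gene in order of its mean over the 12 libraries; points are libraries and lines group means. Postn stands above all others, and Dcn and Vcan have nearly equal means of 38.6 and 38.1.

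Over the 12 libraries, the genes outside the set whose pattern lay nearest to the median pattern of the 10 were, in order, Itgb8, Slc39a6, Arhgef40, Suv39h2, Meis2, Tenm3, Dexi and Eml4, with root mean square differences of centred log2 CPM from 0.103 to 0.148 among 12824 genes. The 10 genes themselves lay 0.127 (Vcan) to 0.699 (Dcn) from that median. Itgb8, an integrin subunit, ran at 13.1 to 14.2 CPM in the 4 libraries and 17.9 to 23.8 CPM in the other 8, and Meis2, a homeobox factor, at 103.5 to 113.9 CPM and 129.9 to 196.8 CPM. None of these 8 was called between genotypes (edgeR adjusted p = 0.999 for each). By the same measure, applied to single genes after their values were seen, Twist1 was nearest to Edil3 (0.192), Gata5 (0.227), Shisa2 (0.257), Serpinb9b (0.264) and Hapln1 (0.274). Edil3, a secreted matrix protein, lay at 8.93 to 10.4 CPM in the 4 libraries and up to 31.9 CPM in the other 8, and Gata5, a factor of endocardial cells, at 3.87 to 5.16 CPM and 12.5 to 16.0 CPM. Dcn was nearest to Sept6 (0.123), Ears2 (0.125), Eml2 (0.131), G0s2 (0.14) and Col6a1 (0.158), of which Col6a1, a chain of collagen VI, lay at 35.4 to 41.9 CPM and 20.8 to 28.9 CPM.

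In the authors' deposited table, the log2 fold changes of the 10 genes ran from -0.215 for Pdgfra to 0.0265 for Has2, with adjusted p-values from 0.917 to 0.999. For Has2, Postn and Dcn the sign in the authors' deposited table was opposite to that of the counts fitted here, with all values near 0. The limma-voom fit of the same counts had the signs of the authors' table, at 0.0256 for Has2, 0.0052 for Postn and -0.00563 for Dcn.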

How the data were processed

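Ventricular RNA was extracted with Trizol and made into libraries with Illumina protocols, per the labels' protocols. The authors deposited whole-number gene counts, with the GC percent of each gene, and a table of their comparison with log2 CPM, log2 fold changes, p-values and adjusted p-values, scores and a linear fold change. Subread, featureCounts and edgeR are named in the submitters' processing notes, and for the genome build, annotation and strand setting: not given in the sources used here. GC percent and scores in the deposited tables were not used.

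From the deposited counts, 622 repeated rows with identical counts were left out, and 0 value columns were left unassigned. Genes passing filterByExpr (minimum count 10; 14774 genes) were scaled by TMM and tested with edgeR 4.0.16 (robust quasi-likelihood, R 4.3.3) over all 12 libraries, with genotype as the only term and Benjamini-Hochberg adjustment at 0.05 over all tested genes. Log2 CPM used a prior count of 1, and exon lengths were the merged exons of all transcripts of a gene in GENCODE M21. DESeq2 1.42.0 and limma-voom (limma 3.58.1) were alternatives, and the tests were checked on simulated counts of 14774 genes with 200 changed in this comparison, where edgeR recovered 92% and 76% of genes set to log2 fold changes of -2 and -1, and 74% and 100% of those set to 1 and 2. Of the calls, 5.52% were false with edgeR, 10.4% with DESeq2 and 2.35% with limma-voom. The simulated libraries were independent, without close pairs or the split of the 4 libraries, so these shares may not hold for the real libraries. The other alternatives were library-size or DESeq2 scaling, other filters, haemoglobin genes left out, a replicate block, the 3 closest pairs summed, leaving out each library and, chosen after seeing the data, leaving out the 4 libraries.

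The 10 genes and the lists were chosen with earlier results of these data known. Named were all 10, of each pathway list the 3 genes and of each cell type list the 2 genes with the lowest p, Axin2 and Ctnnb1, and the 8 genes with the smallest root mean square difference from the set's median pattern and a mean log2 CPM of at least 1. Some genes that this rule names are not reported here. Other genes were named after their values were seen.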

Additional observations from a re-analysis of the deposited data

How the results depend on the processing

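Under all 22 alternatives 0 of the 10 cushion and EMT genes were called, and their median log2 fold change stayed between -0.234 and -0.00928. Over all genes, 64 higher and 10 lower calls became 135 and 25 with DESeq2, 3 and 3 with limma-voom, 0 and 1 with the 3 closest pairs summed, and 0 and 2 without the 4 libraries. With no low-count filter 97 were higher. Leaving out 1 library gave 34 to 149 higher and 4 to 28 lower. The largest counts came without the library labelled Wnt GOF replicate 5 (149 and 28). Without Wnt GOF replicates 1, 2 and 4 there were 35, 34 and 37 higher and 5 lower each time, and without Wnt GOF replicate 3 and control replicate 3 there were 4 and 6 lower. The cause was not tested.

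Of 1187 single-gene values 57 changed sign, none with an adjusted p under 0.05 on either side. Dcn was -0.00228 with DESeq2 size factors, -0.00232 with DESeq2, -0.00563 with limma-voom, -0.0121 with the replicate block, -0.00504 without haemoglobin genes, -0.00192 with pairs summed and -0.00203 without the 4 libraries. Has2 was 0.0256 and Postn 0.0052 with limma-voom, and 0.00648 and 0.00589 with the replicate block. Tenm3 was -0.0416 with pairs summed, and Bgn -0.112, Irx4 0.0151 and Dexi 0.0206 without the 4 libraries. Leaving out 1 library gave -0.302 to 0.0446 for Twist1, -0.129 to 0.0102 for Snai2, -0.249 to 0.00438 for Prrx2, -0.176 to 0.0312 for Vcan, -0.292 to 0.124 for Has2, -0.116 to 0.12 for Dcn and -0.0565 to 0.091 for Postn. Outside the set it gave -0.00922 to 0.107 for Pdgfd, -0.125 to 0.0447 for Arhgef40, -0.203 to 0.0302 for Suv39h2, -0.0725 to 0.148 for Tenm3, -0.139 to 0.0732 for Dexi and -0.11 to 0.0725 for Eml4.

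Nothing in the labels pairs the same-numbered libraries of the 2 groups. The correlations of their deviations ran from -0.368 to 0.453, and 3 of 12 libraries correlated best with their own number. So few pairs cannot decide whether they share a litter or a batch. The replicate block called 0 of the 10 genes, where it called 47 of all 14774 tested genes higher and 8 lower.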
